A study of Mus musculus with 2 samples.

Results

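Sox2 and the 3 SoxC genes, Sox4, Sox11 and Sox12, were followed from retinal progenitors into neurons and into the retinal pigmented epithelium (RPE) of the embryonic mouse eye. The 4 genes were taken by symbol from a feature table of 31053 genes, in which 19 genes carry a Sox symbol followed by a number, and all 4 were measured in both libraries. The study removed Myrf, a membrane-associated transcription factor, from the developing eye and sequenced single cells at e15.5. The control library held eye cups of Myrf fl/fl embryos, which carry the floxed Myrf alleles without the Cre transgene, and the mutant library held eye cups of Rx>cre Myrf fl/fl embryos, in which the Rx promoter drives Cre in the early eye field that gives rise to both retina and RPE. Both libraries came from 3 pooled eye cups with cornea, lens and optic nerve removed, so that each genotype is 1 sample. No test between genotypes was possible, and every interval below is a 95% interval of counting error only.

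SOX proteins bind DNA through a shared HMG box. SOX2, of the SoxB1 group, is known for keeping neural progenitors in the progenitor state and is required for the competence of retinal progenitors. The SoxC proteins SOX4, SOX11 and SOX12 act with proneural bHLH factors and are known to turn on neuronal genes such as Tubb3 and Dcx. In the retina, loss of Sox4 and Sox11 together is known to block formation of most ganglion cells. A handover from SoxB1 to SoxC is a textbook feature of neurogenesis, and the levels of both groups are given here for the same cells.

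The 4 genes lie on different chromosomes of GRCm38, the build to which the reads had been aligned. Sox2 (ENSMUSG00000074637) is a single-exon gene on chromosome 3, positions 34650405 to 34652461, plus strand. It sits wholly inside Sox2ot (positions 34104270 to 34682619), a noncoding gene of the same strand that is not in the feature table, so that reads of Sox2ot at this locus could be counted as Sox2. Sox4 (ENSMUSG00000076431) has 1 exon on chromosome 13, positions 28948919 to 28953713, minus strand, and its last 2753 bases overlap the noncoding gene Gm26735 of the opposite strand. Sox11 (ENSMUSG00000063632) has 1 exon on chromosome 12, positions 27334264 to 27342574, minus strand. Sox12 (ENSMUSG00000051817) lies on chromosome 2, positions 152393611 to 152398063, minus strand, with up to 2 exons per transcript. Because the assay counts 3′ ends, the last 1000 bases of each transcript were compared with all other annotated transcripts in windows of 31 bases. No window of Sox2 or Sox12, 2 windows of Sox4 and 7 of Sox11 were found in another gene, and none was shared between the 4 members, so the SoxC genes could be counted apart.

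The promoters of the 4 genes are shown because Sox4 and Sox11 had like profiles across cell classes while Sox2 had another. Each RefSeq window (GRCm38.p6) runs from 250 bases before to 50 bases after the start annotated by RefSeq, 5′ to 3′ on the gene's strand. The windows of Sox2 and Sox11 lie wholly upstream of the gene positions given above, which come from another annotation. Capitals mark the CCAAT box (letters CCAAT), the GC box (letters GGGCGG), the E-box (as CAGCTG and also as CATCTG) and the SOX core (as AACAAT and also as AACAAA), searched on both strands, with matches of 1 motif allowed to overlap.
Sox2, chr3:34649745-34650044, plus strand: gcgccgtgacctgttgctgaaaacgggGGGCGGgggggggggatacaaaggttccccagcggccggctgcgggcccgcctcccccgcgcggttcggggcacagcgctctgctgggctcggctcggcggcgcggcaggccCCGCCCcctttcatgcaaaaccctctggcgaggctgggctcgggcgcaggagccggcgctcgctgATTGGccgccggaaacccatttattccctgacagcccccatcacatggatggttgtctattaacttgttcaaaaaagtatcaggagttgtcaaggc
Sox4, chr13:28953650-28953949, minus strand: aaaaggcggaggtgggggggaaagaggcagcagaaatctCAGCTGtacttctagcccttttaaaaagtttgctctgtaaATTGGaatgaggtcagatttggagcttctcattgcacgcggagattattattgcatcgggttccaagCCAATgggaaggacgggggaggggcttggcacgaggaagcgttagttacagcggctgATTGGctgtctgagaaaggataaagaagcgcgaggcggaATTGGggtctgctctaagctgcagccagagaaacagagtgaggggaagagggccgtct
Sox11, chr12:27342669-27342968, minus strand: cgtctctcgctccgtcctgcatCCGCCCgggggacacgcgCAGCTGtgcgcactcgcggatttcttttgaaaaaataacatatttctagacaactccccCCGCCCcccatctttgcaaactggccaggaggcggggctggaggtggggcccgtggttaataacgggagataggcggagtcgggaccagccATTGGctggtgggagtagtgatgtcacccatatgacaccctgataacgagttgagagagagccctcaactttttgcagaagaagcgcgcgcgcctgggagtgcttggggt
Sox12, chr2:152397997-152398296, minus strand: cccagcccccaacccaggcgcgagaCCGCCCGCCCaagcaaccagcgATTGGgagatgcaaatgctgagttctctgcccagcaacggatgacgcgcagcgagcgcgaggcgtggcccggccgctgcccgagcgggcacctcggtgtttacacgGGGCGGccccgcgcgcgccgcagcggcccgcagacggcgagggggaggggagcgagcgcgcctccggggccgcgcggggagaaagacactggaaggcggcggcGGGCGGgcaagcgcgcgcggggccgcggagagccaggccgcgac
All 4 windows held CCAAT, with 4 matches in Sox4 and 1 in each of the others, and 37.4% of the 32851 windows of this length in the table hold it. An E-box stood once in Sox4 and once in Sox11 and in neither the Sox2 nor the Sox12 window, against 30.6% of all windows with one. GGGCGG had 2 matches in Sox2, 2 in Sox11, 4 in Sox12 and none in Sox4 (35.7% of all windows). The SOX core letters were in none of the 4 windows (27.7% of all windows). The GC content was 66.3% for Sox2, 52.0% for Sox4, 58.7% for Sox11 and 76.7% for Sox12, and the Sox12 window was richer in GC than 97.3% of all windows.

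After filtering, 11518 control and 12576 mutant cells were kept, with medians of 9339 and 8702 unique molecular identifiers (UMIs, each a counted RNA molecule). Cells were clustered without the 4 genes, the other Sox genes and all naming markers, and 31 of 37 clusters were named from markers, which gave 13 classes with at least 50 cells in each library. Levels are UMIs of a gene per 1000000 UMIs of the class (CPM). Progenitor-like cells (with Sfrp2 and Fgf15 among their markers) numbered 4150 in the control and 5401 in the mutant library, neurogenic cells (Atoh7, Dll1, Dll3, Neurog2) 806 and 1099, ganglion cell-like cells 413 and 518, cone or photoreceptor-like cells 318 and 468, amacrine-like cells 315 and 485, horizontal-like cells 74 and 108, and RPE-like cells 365 and 197. Myrf itself, read as a check of the genotypes, stood in RPE-like cells at 77.6 CPM (68.9 to 87.0) without Cre and 29.7 CPM (22.4 to 38.6) with it. The libraries shared 69 barcodes, and 3 control cells against 5249 mutant cells held a UMI of a Y-linked gene, so that genotype and the sex of the pooled embryos cannot be told apart in the whole libraries. Erythroid-like cells, which should lack all 4 genes, gave the level of free RNA.

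Sox2 was a gene of progenitor-like cells, and its level was lower in every other neural class. It stood at 355 CPM (348 to 361) in control and 337 CPM (331 to 342) in mutant progenitor-like cells. In 2 shallow progenitor-like clusters (median depths of 1474 and 1144 UMIs) Sox2 was lower. There it was at 172 and 146 CPM in control and 163 and 152 CPM in mutant cells. In neurogenic cells, the transitional population that leaves the cell cycle, Sox2 was at 154 CPM (146 to 162) and 171 CPM (163 to 178). In ganglion cell-like cells it was at 4.09 CPM (2.72 to 5.91) and 10.3 CPM (8.27 to 12.6), a ratio to progenitor-like cells of 0.0115 (0.00766 to 0.0167) in the control and 0.0305 (0.0245 to 0.0375) in the mutant library. These low levels moved with the setting, to 11.8 and 29.0 CPM with called doublets kept, 3.37 and 2.90 CPM without cells over 20000 UMIs, 2.73 and 6.87 CPM with free RNA subtracted and 2.37 and 5.29 CPM without the 5 richest cells, and stayed far below the progenitor level. Erythroid-like cells had 1.44 CPM (0.720 to 2.58) and 3.67 CPM (2.37 to 5.42), below the ganglion cell level of the same library. Cone or photoreceptor-like and amacrine-like cells kept more of it. Sox2 was at 49.8 CPM (41.3 to 59.6) and 56.5 CPM (48.9 to 65.0) in cone or photoreceptor-like cells and at 58.9 CPM (49.7 to 69.3) and 95.7 CPM (86.1 to 106) in amacrine-like cells. In horizontal-like cells there were only 6 and 26 Sox2 UMIs, or 13.1 CPM (4.81 to 28.5) and 38.2 CPM (24.9 to 55.9), of which the control interval overlapped that of ganglion cell-like cells. In order of level, progenitor-like and neurogenic cells stood apart from each other and from all other classes in both libraries, amacrine-like and cone or photoreceptor-like cells overlapped in the control library only, and from muscle cells, the sixth class of the control order, downward each control class overlapped the one above it.

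Sox4 and Sox11 ran the other way, lower in progenitor-like than in neurogenic and ganglion cell-like cells and highest of all 13 classes in amacrine-like cells. Sox11 was not low in progenitor-like cells, where it had more UMIs than Sox2 in both libraries (12940 against 11043 and 15985 against 14117). Sox4 went from 168 CPM (163 to 172) in control progenitor-like cells to 769 CPM (751 to 787) in neurogenic cells, 1520 CPM (1500 to 1550) in ganglion cell-like cells and 3170 CPM (3090 to 3240) in amacrine-like cells. The mutant library had 168, 666, 1570 and 2990 CPM in the same order. The amacrine-like level depended on the clustering, with Sox4 at 2010 and 2030 CPM with called doublets kept and at 2080 and 2020 CPM at Leiden resolution 2.0, settings under which no separate horizontal-like class formed. Sox11 went from 416 CPM (409 to 423) in control progenitor-like cells to 1640 CPM (1620 to 1670) in neurogenic, 2040 CPM (2000 to 2070) in ganglion cell-like and 4660 CPM (4570 to 4740) in amacrine-like cells. The mutant library had 381, 1420, 1820 and 3730 CPM. Horizontal-like cells came second for both genes, with Sox4 at 2100 CPM (1960 to 2230) and 2000 CPM (1900 to 2110) and Sox11 at 2460 CPM (2320 to 2610) and 2220 CPM (2110 to 2340).

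Cone or photoreceptor-like cells parted the pair. Sox4 was at 977 CPM (938 to 1020) in control and 963 CPM (930 to 996) in the mutant library there, 5.83 (5.55 to 6.12) and 5.74 (5.51 to 5.98) times its progenitor level. Sox11 was at 451 CPM (424 to 478) and 350 CPM (331 to 370), 1.08 (1.02 to 1.15) and 0.919 (0.866 to 0.974) times its progenitor level. The order in the control library turned with the setting, since without the 5 richest cells of each class Sox11 was at 334 CPM in cone or photoreceptor-like and 412 CPM in progenitor-like cells, and at 366 and 374 CPM as a mean of cells. Among the neuron classes, the cone or photoreceptor-like cells thus held the lowest Sox11 level in both libraries.

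Sox12 did not follow its relatives. It was lower in neurogenic cells, at 27.4 CPM and 26.4 CPM, than in progenitor-like cells, at 59.9 CPM (57.2 to 62.7) and 54.9 CPM (52.7 to 57.2), a ratio of 0.457 (0.398 to 0.522) in the control and 0.481 (0.426 to 0.541) in the mutant library. It was highest in horizontal-like cells, at 238 CPM (196 to 287) and 273 CPM (235 to 315), followed by ganglion cell-like cells at 125 CPM (117 to 134) and 128 CPM (120 to 135) and cone or photoreceptor-like cells at 125 CPM (111 to 139) and 117 CPM (106 to 129), which overlapped. Sox12 thus lay low in the class between progenitors and neurons, where Sox4 and Sox11 were 4.59 and 3.95 times their progenitor levels in the control and 3.97 and 3.73 times in the mutant library.

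**Figure D1:**
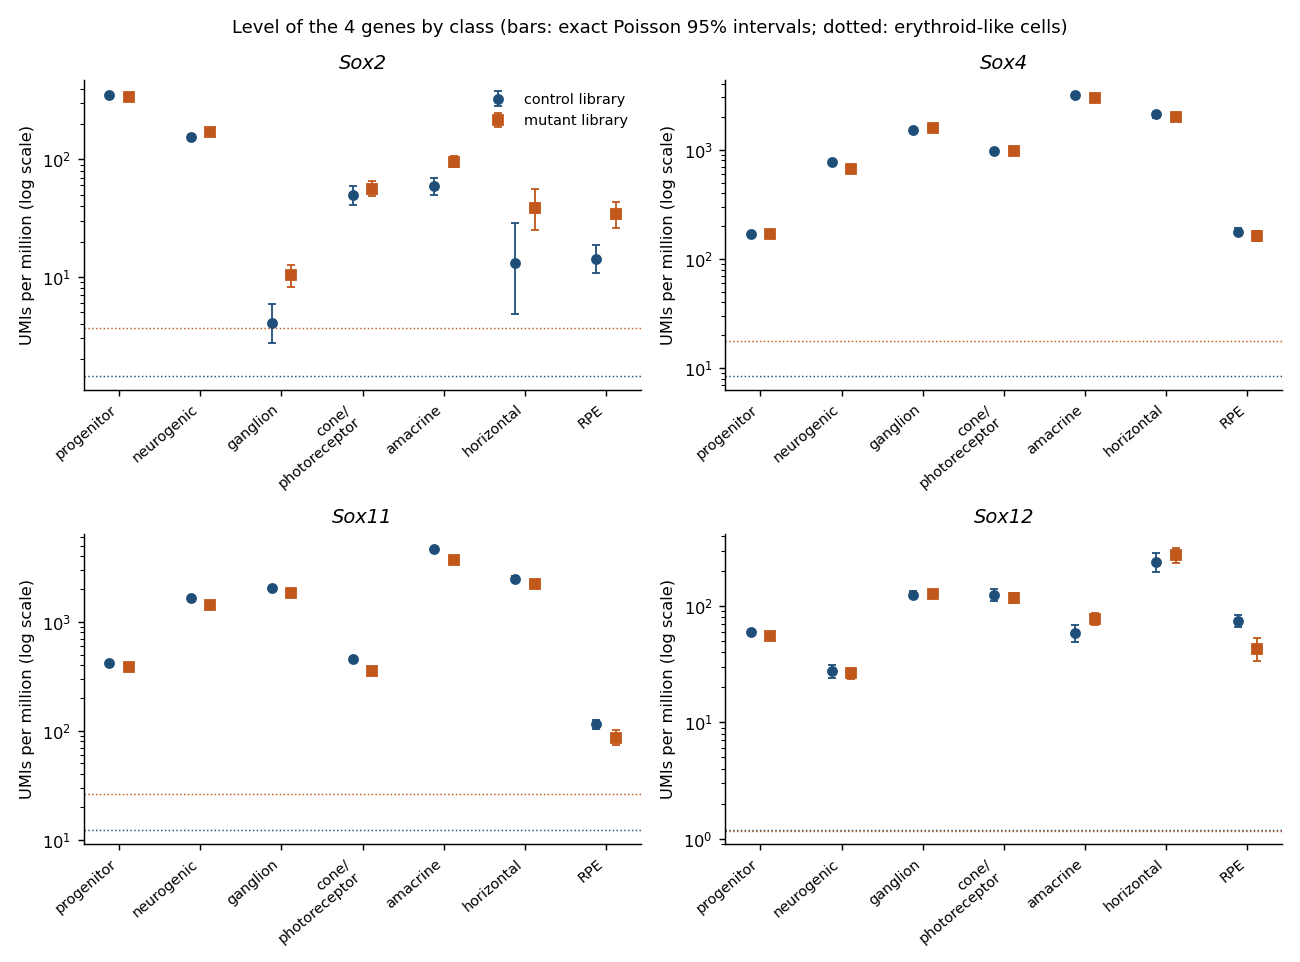
Level of Sox2, Sox4, Sox11 and Sox12 (CPM, log scale) in 6 neural classes and RPE-like cells, with circles for the control and squares for the mutant library, 95% Poisson bars and dotted lines at the level in erythroid-like cells. Sox2 is highest in progenitor-like cells at 355 and 337 CPM, Sox4 and Sox11 in amacrine-like cells, and Sox12 in horizontal-like cells with a low in neurogenic cells.

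A fold of 2 in the same direction in both libraries gives the background. Between neurogenic and progenitor-like cells, 11.7% of genes with at least 100 UMIs passed it, and Sox4 and Sox11 passed upward and Sox12 downward, while Sox2 did not pass (0.433 in the control and 0.507 in the mutant library). Between ganglion cell-like and progenitor-like cells 34.3% of genes passed, and all 4 members did, Sox2 downward and the 3 SoxC genes upward. Of all genes, 26.9% passed for amacrine-like cells, where Sox4 and Sox11 passed upward and Sox2 downward, and 30.7% for horizontal-like cells, where the 3 SoxC genes passed upward and Sox2 downward. For cone or photoreceptor-like cells 24.2% of genes passed, with Sox4 and Sox12 upward and Sox2 downward. With so large a share of all genes past the fold, passing it does not set a member apart, and the size of the ratios is the measure to read.

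Within the neurogenic class, 3 clusters differed in Sox2, Sox4 and Sox11. The cluster led by Neurog2, Olig2 and Atoh7 held Sox2 at 226 CPM in control and 238 CPM in the mutant library, Sox4 at 487 and 462 CPM, and Sox11 at 1500 and 1350 CPM. The cluster led by Pkib, Dll3 and Btg2, with Neurod1 among its leading genes, held Sox2 at 93.0 and 97.5 CPM, Sox4 at 730 and 630 CPM and Sox11 at 1350 and 1240 CPM. The cluster led by Gal, Insm2, Dlx1 and Pou4f2, a ganglion cell determinant, held Sox2 at 75.3 and 69.4 CPM, Sox4 at 1280 and 1270 CPM and Sox11 at 2100 and 1840 CPM. Sox2 was thus lowest and both SoxC genes highest in the cluster with Pou4f2 and with the most Isl1 (658 and 544 CPM), while Sox12 stayed between 23.6 and 32.5 CPM in all 3 clusters of both libraries.

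The 2 ganglion cell-like clusters split the SoxC genes once more. Sox4 was at 1950 and 1980 CPM (control and mutant) in the cluster led by Isl1, Igfbpl1 and Cntn2 and at 911 and 895 CPM in the cluster led by Sncg, Nrn1 and Ina, which encode proteins of axons and neurofilaments. Sox11 was at 2310 and 2070 CPM in the first and 1630 and 1400 CPM in the second. Sox12 had the opposite order, at 96.0 and 99.5 CPM in the first and 167 and 175 CPM in the second. Sox2 was at most 12.7 CPM in either. Both libraries gave the same order for each SoxC gene, and no time order of the clusters was measured.

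**Figure D2:**
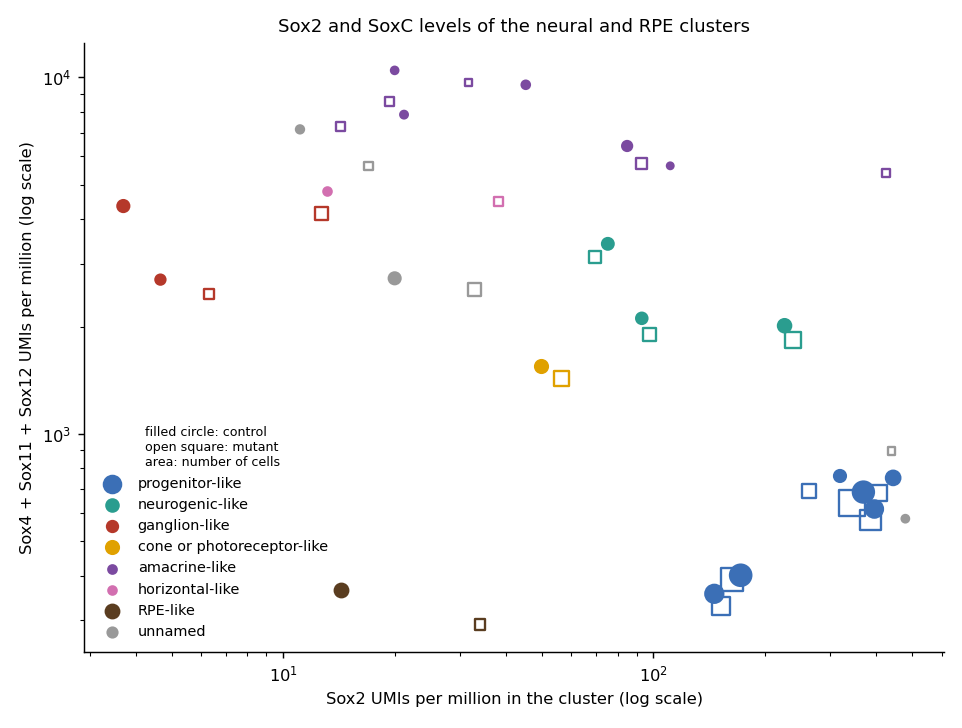
Sox2 (x axis) against summed Sox4, Sox11 and Sox12 (y axis), both in CPM on log scales, for each neural and RPE cluster, filled circles for the control and open squares for the mutant library, with marker area rising with the number of cells. Progenitor-like clusters lie at low SoxC and most at high Sox2. The 2 shallow ones hold Sox2 at 172 and 146 CPM (control) and 163 and 152 CPM (mutant), below the neurogenic cluster led by Neurog2. Neurogenic clusters lie at higher SoxC than progenitor-like ones, ganglion cell-like clusters at low Sox2 and high SoxC, and RPE-like cells low in both. In the mutant library 1 amacrine-like cluster combines Sox2 at 424 CPM with high SoxC.

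The share of Sox2 among the UMIs of the 4 genes sets them against each other inside a class without scaling by depth. It was 35.5% (35.0 to 36.1) of 31065 UMIs in control progenitor-like cells and 35.8% (35.3 to 36.3) of 39434 in mutant ones. In neurogenic cells the share was 5.92% (5.62 to 6.24) and 7.47% (7.16 to 7.79), in ganglion cell-like cells 0.111% (0.0737 to 0.160) and 0.291% (0.235 to 0.358), and in amacrine-like cells 0.742% and 1.39%. Cone or photoreceptor-like cells lay above the other neurons at 3.11% (2.58 to 3.71) and 3.80% (3.30 to 4.36). The progenitor shares of the 2 libraries overlapped, and in neurogenic, ganglion cell-like and amacrine-like cells the mutant share was above the control share beyond counting error. The neurogenic cluster lowest in Sox2 and highest in SoxC held 241 of 806 control and 247 of 1099 mutant neurogenic cells. How far this make-up entered the neurogenic shares was not tested.

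Within the SoxC UMIs, Sox11 took most counted 3′ ends in progenitor-like and neurogenic cells, and Sox4 in cone or photoreceptor-like cells. Sox11 made up 64.6% (64.0 to 65.3) of SoxC UMIs in control progenitor-like cells, 67.3% (66.7 to 68.0) in neurogenic, 55.2% (54.6 to 55.8) in ganglion cell-like and 59.1% (58.4 to 59.8) in amacrine-like cells. In cone or photoreceptor-like cells Sox4 had 62.9% (61.4 to 64.5) of control and 67.3% (66.0 to 68.6) of mutant SoxC UMIs. Sox12 had 20.3% (18.2 to 22.6) in control RPE-like cells, its largest share of any class, against 1.12% (0.987 to 1.27) in neurogenic cells. Such shares compare counted ends and not full transcripts, and capture of the 3′ end can differ between genes.

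**Figure D3:**
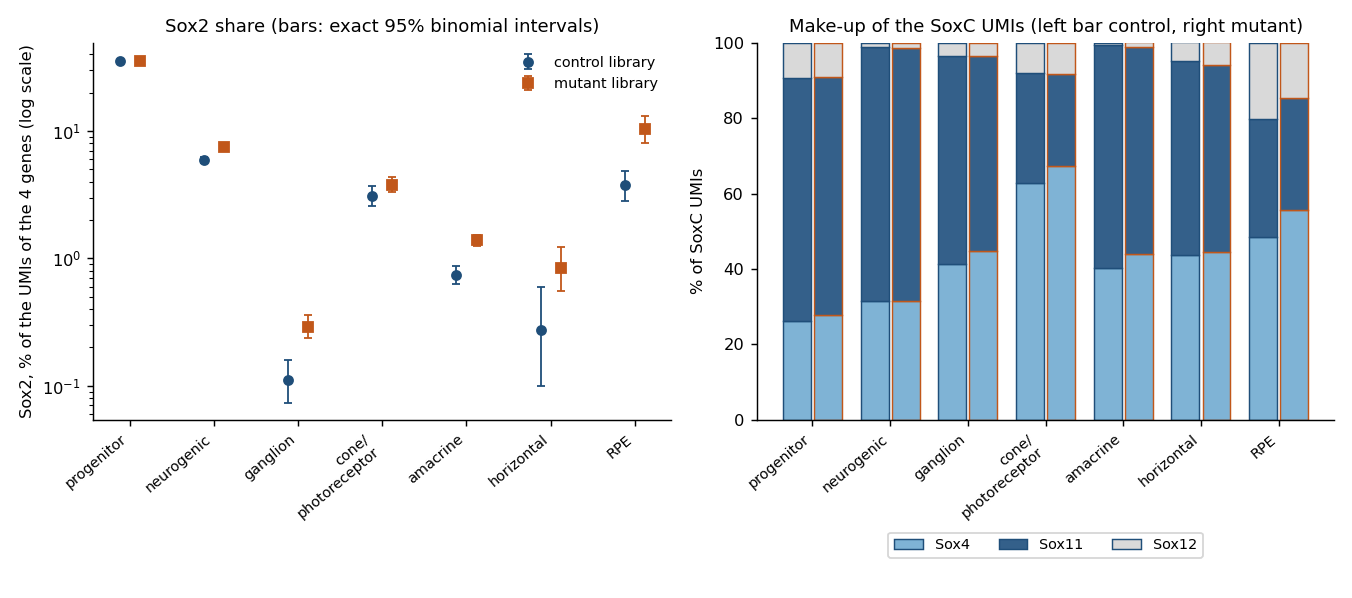
Left, Sox2 as a percentage of the UMIs of the 4 genes (log scale) per class and library with exact 95% intervals. Right, Sox4, Sox11 and Sox12 as percentages of SoxC UMIs, left bar control and right bar mutant. Sox2 takes over 35% in progenitor-like cells and under 1.5% in ganglion cell-like, amacrine-like and horizontal-like cells, and Sox4 takes the largest SoxC share in cone or photoreceptor-like cells.

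Single cells held Sox2 and SoxC RNA together. At full depth, 58.3% (56.8 to 59.8) of control and 61.9% (60.6 to 63.2) of mutant progenitor-like cells, with median depths of 7071.5 and 7602 UMIs, had a UMI of Sox2 and of at least 1 SoxC gene, as had 60.2% (56.7 to 63.6) and 63.4% (60.5 to 66.3) of neurogenic cells (medians 10579.5 and 10072 UMIs). In erythroid-like cells, with medians of 16706.5 and 16622 UMIs, the joint share was 0.205% (0.00519 to 1.14) and 1.40% (0.515 to 3.02). Thinned to 2000 UMIs per cell, which left out 1186 control and 1243 mutant progenitor-like cells, the joint share was 32.0% (30.3 to 33.7) and 28.7% (27.3 to 30.1) in progenitor-like and 20.8% (18.0 to 23.8) and 22.5% (20.1 to 25.1) in neurogenic cells. Sox2 alone was then found in 46.0% (44.2 to 47.8) and 44.8% (43.3 to 46.4) of progenitor-like cells, in 22.4% (19.6 to 25.5) and 24.1% (21.6 to 26.7) of neurogenic cells and in 0.973% (0.266 to 2.47) and 0.775% (0.212 to 1.97) of ganglion cell-like cells. The last lies near the thinned erythroid share of 0.219% (0.00554 to 1.21) and 0.246% (0.00622 to 1.36), with overlapping intervals, and rests on 4 ganglion cell-like cells in each library.

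Cells with and without Sox2 RNA differed in Sox4 inside the neurogenic class. Among thinned control neurogenic cells, Sox4 was found in 54.7% (47.2 to 62.2) of 179 cells with a Sox2 UMI and in 70.1% (66.3 to 73.7) of 619 cells without one. The mutant library had 56.7% (50.5 to 62.8) of 261 and 63.2% (59.8 to 66.5) of 823 cells, where the intervals overlapped. In progenitor-like cells the order was the other way, with 27.1% (24.7 to 29.5) against 22.7% (20.7 to 24.8) in the control and 26.7% (24.7 to 28.7) against 23.8% (22.1 to 25.6) in the mutant library, again with overlap. Sox11 was found in 88.8% (83.3 to 93.0) of control neurogenic cells with Sox2, within the interval of those without (87.3% to 92.2%), and in 86.6% (81.8 to 90.5) and 85.5% (83.0 to 87.9) of mutant ones. Shares this high leave little room for a difference. In control progenitor-like cells Sox11 was found more often with Sox2 (54.5%, 51.9 to 57.2) than without (47.3%, 44.8 to 49.8), and in the mutant library the shares of 49.1% (46.8 to 51.4) and 45.6% (43.6 to 47.7) overlapped.

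Called phases of the cell cycle, in progenitor-like cells of at least 2000 UMIs, were compared for each member. Sox2 was at 353 CPM (330 to 377) in G1, 327 CPM (316 to 339) in S and 378 CPM (369 to 387) in G2M cells of the control and at 327 CPM (308 to 348), 335 CPM (325 to 345) and 346 CPM (339 to 354) in the mutant library. Sox4 was lowest in S, at 138 CPM (131 to 146) and 142 CPM (136 to 149), and highest in G1, at 217 CPM (199 to 236) and 189 CPM (174 to 205). In G2M cells Sox4 was at 176 CPM (170 to 182) and 177 CPM (172 to 183), which overlapped G1 in the mutant library. Sox12 was at 65.1, 62.7 and 58.2 CPM in G1, S and G2M cells of the control and at 55.9, 60.3 and 51.8 CPM in the mutant library. Sox11 lay between 410 and 429 CPM in the control and between 380 and 413 CPM in the mutant library. The share of cells called G1 was 9.82% and 9.50%, that of S 35.0% and 35.1% and that of G2M 55.2% and 55.4%. These are calls from the RNA of phase genes alone, free RNA enters them too, and no cycling rate is read from them.

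As a class, amacrine-like cells held Sox2 at or above the level of cone or photoreceptor-like cells. One of their clusters came mostly from the mutant library and was rich in Sox2 and Isl1, so that leaving it out lowers the mutant level by the choice itself. Without it the Sox2 level of amacrine-like cells was 57.7 CPM in control and 55.8 CPM in the mutant library, against 49.8 and 56.5 CPM in cone or photoreceptor-like cells. Starburst amacrine cells are known to keep SOX2 and to express Isl1, and the list fixed for them held Chat, Slc18a3, Slc5a7, Isl1, Fezf1, Megf10 and Megf11. The amacrine-like cluster richest in Isl1, singled out after its values and its share of mutant cells were seen and with Tfap2a and Slc32a1 among its leading genes, had 9 control and 55 mutant cells, and 36 of the 55 held a Y-linked UMI. In its mutant cells Sox2 was at 424 CPM (363 to 493), above the level of progenitor-like cells, with Isl1 at 730 CPM (650 to 819) and 25 of 55 cells (45.5%, 32.0 to 59.4) with a Sox2 UMI, 24 of which also had Isl1. The 9 control cells held 6 Sox2 UMIs, or 111 CPM (40.8 to 242), in 3 cells, all with Isl1. Fezf1 had 20 UMIs and Megf10 12 UMIs in the 55 mutant cells and none in the 9 control cells, where the exact interval reached 68.3 CPM for each. Chat and Slc5a7, the genes that make and recover the transmitter acetylcholine, had no UMI in any amacrine-like cell of either library, and Slc18a3 had 1.

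In the other 4 amacrine-like clusters the Sox2 intervals of the libraries overlapped, at 57.7 CPM (48.5 to 68.2) in 306 control and 55.8 CPM (48.1 to 64.4) in 430 mutant cells. Their highest level was in the cluster led by Krt73, Ptf1a and Prdm13, at 84.9 CPM in control and 92.7 CPM in the mutant library, where Sox4 was lowest of the 4 (2070 and 2040 CPM). Sox11 was lower in the Isl1-rich cluster, at 2110 CPM (1740 to 2530) in control and 1780 CPM (1660 to 1920) in the mutant library, against 4710 CPM (4630 to 4800) and 3960 CPM (3900 to 4030) in the others. Sox4 was at 3520 CPM (3030 to 4050) and 3430 CPM (3250 to 3620) against 3160 CPM (3090 to 3230) and 2940 CPM (2880 to 2990), apart by counting error in the mutant library only. The pooled Sox4 level of the others includes the low Krt73 cluster. The remaining clusters had Sox4 at 3910 to 4520 CPM in control and 3520 to 4370 CPM in the mutant library, not below the Isl1-rich cluster. Over all amacrine-like cells, 8 of 315 control (2.54%) and 35 of 485 mutant cells (7.22%) held UMIs of both Sox2 and Isl1.

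**Figure D4:**
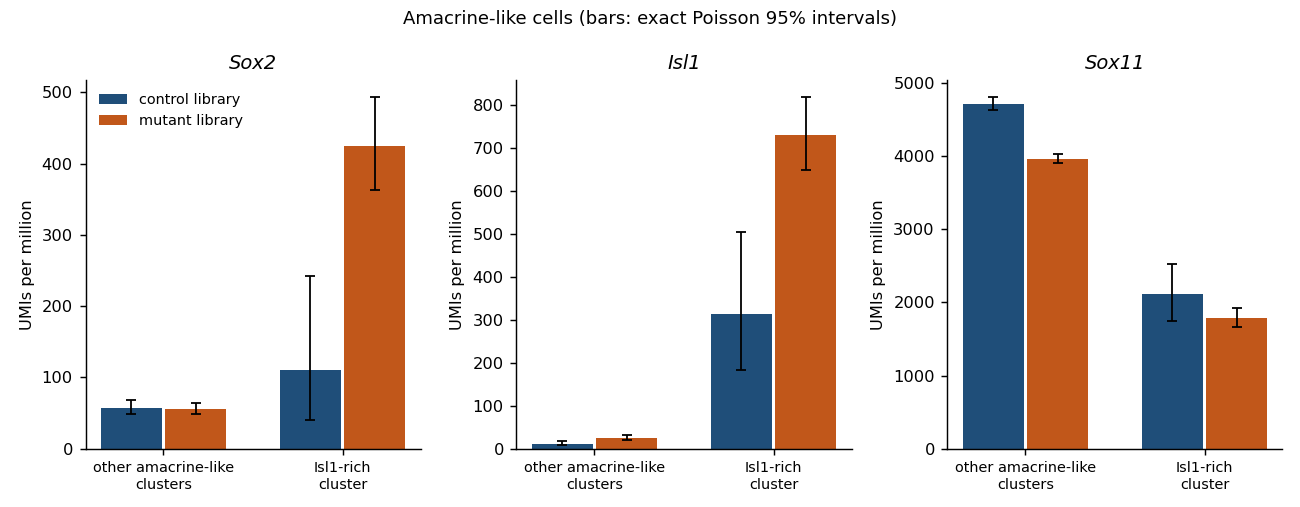
Sox2, Isl1 and Sox11 (CPM, linear axes from 0) in the 4 other amacrine-like clusters and in the Isl1-rich amacrine-like cluster, control and mutant library, with exact 95% Poisson bars. Sox2 is at 57.7 and 55.8 CPM in the other clusters and at 111 and 424 CPM in the Isl1-rich cluster, which has 9 control and 55 mutant cells.

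Between genotypes, the SoxC genes and Sox2 of progenitor-like cells differed little. Mutant over control gave 0.949 (0.926 to 0.973) for Sox2, 1.00 (0.965 to 1.04) for Sox4, 0.917 (0.896 to 0.939) for Sox11 and 0.917 (0.862 to 0.975) for Sox12. A gene counted as past the limit where it was at least 25% higher in one library than in the other. None of the 4 passed it, as 7.48% of genes did. In neurogenic cells Sox2 had a ratio of 1.11 (1.04 to 1.19), Sox4 of 0.866 (0.838 to 0.894), Sox11 of 0.865 (0.847 to 0.885) and Sox12 of 0.965 (0.814 to 1.15), none past the limit that 9.95% of genes passed. The neurogenic cluster with Pou4f2, lowest in Sox2, held 241 of 806 control and 247 of 1099 mutant cells. Within the clusters Sox2 was at 226 and 238, 93.0 and 97.5, and 75.3 and 69.4 CPM, and Sox4 and Sox11 were lower in the mutant library in each. The part of this make-up in the class ratios was not tested. Sox11 was below its control level in the 6 neural classes and in RPE-like cells, with ratios from 0.760 to 0.917. The direction turned in cells of at most 2000 UMIs, with 317 control and 336 mutant CPM in progenitor-like and 77.3 and 88.0 CPM in RPE-like cells, and in RPE-like cells also as a mean of cells, with 92.0 and 99.6 CPM. RPE-like cells of at most 2000 UMIs held only 35 control and 21 mutant UMIs of the SoxC genes together, too few to settle a direction. In cells with Xist and without a Y-linked UMI, which compares like sex, the Sox2 log2 ratio of mutant over control was -0.06 in progenitor-like, 0.19 in neurogenic, 1.77 in ganglion cell-like, 1.54 in RPE-like and 0.22 in amacrine-like cells, and that of the SoxC sum was -0.11, -0.25, -0.02, -0.36 and -0.26 in the same order. The directions were those of all cells, and for amacrine-like cells the Sox2 difference was smaller than the 0.70 of all cells.

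In ganglion cell-like cells, where 10.3% of genes passed the 25% limit, Sox2 was the only member to pass, with 28 control and 91 mutant UMIs and a ratio of 2.51 (1.63 to 3.99). Of the mutant UMIs, 49.5% lay in 5 cells, 1 of them with 24, and without cells over 20000 UMIs the difference turned to 14 control and 16 mutant UMIs, a log2 ratio of -0.22. In erythroid-like cells Sox2 had a ratio of 2.54 (1.21 to 5.73), Sox4 of 2.08 (1.53 to 2.86) and Sox11 of 2.15 (1.67 to 2.80), so that more of this RNA was counted in erythroid-like cells of the mutant library, and in mesenchymal cells Sox2 had a ratio of 2.63 (2.02 to 3.46). With free RNA subtracted, the ganglion cell-like Sox2 log2 ratio was 1.33 (19 control and 61 mutant UMIs), as it was without the subtraction, and with called doublets kept it was 1.29. Some other genes of progenitor-like cells were also higher in the ganglion cell-like cells of the mutant library, with ratios of 2.04 (1.53 to 2.75) for Hes5, 1.59 (1.13 to 2.25) for Hes1, 1.45 (1.03 to 2.05) for Notch1, and with Sox9 at 3.07 CPM (1.90 to 4.69) in control and 6.44 CPM (4.87 to 8.34) in the mutant library. Nes and Tead2, which also fell from progenitor-like to ganglion cell-like cells, had ratios of 1.07 (0.779 to 1.48) and 0.903 (0.763 to 1.07). Whether progenitor RNA in these cells had a part in the Sox2 difference was not tested.

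In cone or photoreceptor-like cells, Sox11 passed downward at 0.777 (0.716 to 0.844), a call that ended without the 5 richest cells (334 and 303 CPM), with called doublets kept (453 and 365 CPM) and with classes from markers in each cell (440 and 359 CPM), and Sox2, Sox4 and Sox12 did not pass, at 1.13 (0.900 to 1.44), 0.986 (0.935 to 1.04) and 0.942, against 14.7% of genes past the limit. In amacrine-like cells 14.8% of genes passed, and Sox2 passed with 144 and 358 UMIs (1.63, 1.34 to 1.99) and Sox12 with 143 and 292 UMIs (1.34, 1.09 to 1.64). Sox4 did not pass, at 0.945 (0.918 to 0.973), and Sox11 lay at the limit, at 4660 and 3730 CPM with a ratio of 0.781 to 0.821 by its interval, and passed downward without cells over 20000 UMIs (4670 and 3720 CPM) and with free RNA subtracted (4630 and 3670 CPM). The Sox2 call rested on the setting, since its log2 ratio of 0.70 became 0.09 with called doublets kept, 0.15 at Leiden resolution 2.0 and 0.27 with at most 5% mitochondrial UMIs, all under the 25% limit. Sox12 was at 33.2 and 38.7 CPM with doublets kept and at 31.1 and 37.4 CPM at that resolution, also under the limit. Without the Isl1-rich cluster the Sox2 log2 ratio was -0.05, and Sox12 was at 59.4 CPM in control and 63.9 CPM in the mutant library. In horizontal-like cells 20.1% of genes passed and Sox4, Sox11 and Sox12 did not, with ratios of 0.957 (0.880 to 1.04), 0.901 (0.834 to 0.975) and 1.15 (0.900 to 1.47), and Sox2, with 6 and 26 UMIs (2.91, 1.17 to 8.65), fell short of the 100 UMIs asked of a gene.

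**Figure D5:**
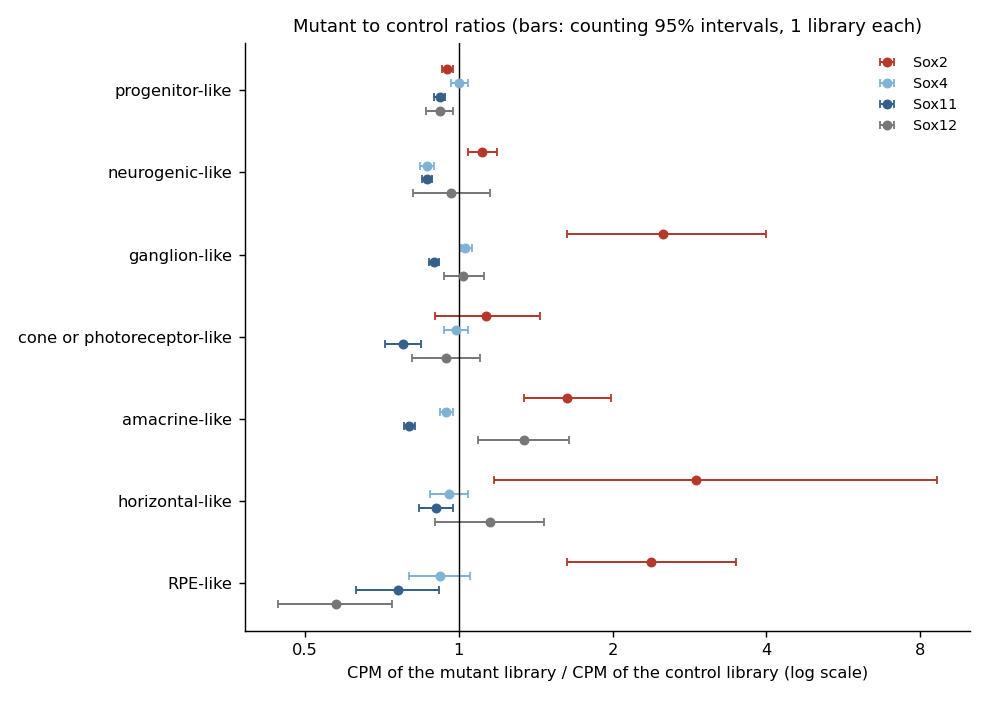
Ratio of mutant to control CPM (log axis) for each member gene and class, with exact 95% counting intervals and 1 library per genotype. In the 6 neural classes and RPE-like cells, the SoxC points lie between 0.575 and 1.34 and Sox2 lies above 1 except in progenitor-like cells, with wide intervals where its UMIs are few.

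In RPE-like cells Sox2 and Sox11 were below their progenitor level, Sox4 was near it in both libraries, and Sox12 was above it in the control library. Sox4 was at 177 CPM (164 to 191) in control and 163 CPM (145 to 182) in the mutant library, Sox11 at 114 CPM (103 to 125) and 86.4 CPM (73.5 to 101), and Sox12 at 74.1 CPM (65.7 to 83.3) and 42.6 CPM (33.8 to 53.2). Sox12 had the largest difference among the SoxC genes, 0.575 (0.442 to 0.741), with 0.919 (0.799 to 1.05) for Sox4 and 0.760 (0.630 to 0.914) for Sox11, while 21.3% of genes passed the 25% limit, as did Sox2, Sox11 and Sox12. Against progenitor-like cells, 23.5% of genes passed 2-fold, and of the members Sox2 and Sox11 did, both downward. Sox2 in RPE-like cells was at 14.3 CPM (10.7 to 18.7) and 34.0 CPM (26.1 to 43.5), a ratio of 2.38 (1.63 to 3.49). The levels depended on how the class was drawn, with 2.87 and 10.9 CPM (7 and 11 UMIs) where classes were set from markers in each cell, and 6.81 and 12.4 CPM without the 5 richest cells. Sox11 no longer passed with classes from markers (49.2 and 44.6 CPM), without cells over 20000 UMIs (77.8 and 66.9 CPM) and in cells with Xist and without a Y-linked UMI (121 and 105 CPM), and was at 95.2 and 42.0 CPM with free RNA subtracted and at 68.3 and 52.2 CPM without the 5 richest cells. RPE-like cells were shallower in the mutant library, with a median of 3660 UMIs against 6940.

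The Sox2 UMIs of RPE-like cells sat in few cells. In the control, 54 UMIs lay in 22 of 365 cells, with 53.7% in the 5 richest, and in the mutant library 63 UMIs lay in 18 of 197 cells, with 66.7% in the 5 richest and up to 12 in a cell. The SoxC UMIs of the mutant library were spread more widely for Sox4 and Sox12, with 19.6% and 25.3% in their 5 richest cells, and 45.6% for Sox11. The cells richest in Sox2 (5 control and 7 mutant cells, ties included) had medians of 22930 and 18388 UMIs and had Pmel, a melanosome gene, at 6150 and 4330 CPM against 7830 and 7740 CPM in all RPE-like cells. Their median doublet scores were 0.113 and 0.217, against 0.0714 and 0.0824. Sox2 was also higher in the mutant library in erythroid-like (2.54), mesenchymal (2.63), immune (2.24) and epithelial cells (3.28). Endothelial and muscle cells had ratios of 1.38 (0.877 to 2.15) and 0.852 (0.564 to 1.28). Whether the Sox2 RNA was made in RPE cells was not tested.

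Genes known as targets or partners of SOX2 in neural progenitors only partly shared its pattern. Of 8 such genes, 4 passed 2-fold downward in both libraries in ganglion cell-like against progenitor-like cells, namely the Notch receptor gene Notch1, the Notch targets Hes1 and Hes5, and the intermediate filament gene Nes, with a list median log2 ratio of -1.04 against -0.05 over all genes, of which 34.3% passed in either direction and 2178 of 11204 downward. Hes1 and Hes5 were also among the markers that named the progenitor class. Hes5 went from 653 and 705 CPM to 9.65 and 19.6 CPM. The eye field genes Pax6 and Six3 did not pass and were at 560 and 554 CPM and at 989 and 1040 CPM in ganglion cell-like cells. Against progenitor-like cells, neurogenic cells held less Hes1 (525 and 582 against 57.7 and 67.7 CPM) but more Hes5 (653 and 705 against 1160 and 1250 CPM), so that the 2 Notch targets parted in the class where Sox2 stood at 0.433 and 0.507 of its progenitor level. Between genotypes, none of the 8 genes passed the 25% limit in progenitor-like cells, where 7.48% of genes did and their ratios ran from 0.855 for Nes to 1.11 for Hes1. In ganglion cell-like cells 4 of the 8 passed upward, Notch1, Hes1, Hes5 and Fabp7, where 10.3% of genes passed in either direction. In cone or photoreceptor-like cells 4 passed upward, Hes1, Hes5, Nes and Fabp7, where 14.7% of genes passed, in neurogenic cells Nes and Fabp7 passed downward, where 9.95% did, and in amacrine-like cells Hes1 passed downward, at 0.786 (0.605 to 1.02), where 14.8% did.

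Of 14 neuronal genes, 8 passed 2-fold upward in neurogenic and 12 in ganglion cell-like cells, with medians of 1.97 and 6.77 on the log2 scale against 0.00 and -0.05 over all genes. Of all genes, 489 of 11001 passed upward in neurogenic cells (11.7% in either direction) and 1667 of 11204 in ganglion cell-like cells (34.3%). Tubb3, a neuronal tubulin and known SoxC target, was at 34.6 and 57.0 CPM in progenitor-like, 1240 and 1070 CPM in neurogenic and 4960 and 4770 CPM in ganglion cell-like cells. Dcx, another known SoxC target that binds microtubules, was at 3.78 and 3.44 CPM in neurogenic cells and at 294 CPM in ganglion cell-like cells of both libraries, so that it was low where Sox4 and Sox11 were already high. Tead2, a known SoxC target of the Hippo pathway, went the other way, from 144 and 132 CPM in progenitor-like to 38.1 and 34.4 CPM in ganglion cell-like cells. Between genotypes, 8 of the 13 neuronal genes measured in progenitor-like cells passed the 25% limit upward and none downward, where 571 of 11813 genes passed upward (7.48% in either direction), among them Tubb3 at 1.65 (1.53 to 1.77) and Gap43 at 1.81 (1.60 to 2.04). In erythroid-like cells the ratios of mutant to control were 2.08 for Sox4, 2.15 for Sox11 and 2.54 for Sox2, so the rise there was not particular to neuronal genes. Subtracting free RNA took progenitor-like Sox4 from 168 CPM in both libraries to 150 CPM in control and 131 CPM in the mutant library. Isl1, a gene of ganglion and amacrine cells, had a ratio of 1.65 (1.26 to 2.17) in progenitor-like cells. Whether free RNA had a part in the neuronal gene counts was not tested. In neurogenic cells 2 of 12 passed downward (9.95% of genes in either direction), in cone or photoreceptor-like cells 4 of 13 passed downward, Dcx, Elavl4, Ina and Igfbpl1 (14.7%), and in amacrine-like cells 4 of 14 passed upward, Dcx, Map2, Mapt and Elavl4 (14.8%), with none the other way in these classes. None of the 14 passed in ganglion cell-like cells. Sox4 and Sox11 did not share that direction in progenitor-like cells.

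Of the 15 other Sox genes, 5 had enough UMIs to set ganglion cell-like against progenitor-like cells, and all 5, Sox1, Sox3, Sox8, Sox9 and Sox13, passed 2-fold downward, as Sox2 and 2178 of 11204 genes did (34.3% in either direction). Sox9, a gene of progenitors and glia, was at 187 and 215 CPM there and at 3.07 and 6.44 CPM in ganglion cell-like cells. The SoxB1 genes Sox1 and Sox3, the closest relatives of Sox2, were low, at 5.49 and 3.98 CPM and at 24.1 and 23.0 CPM in progenitor-like cells. Sox3 was also found in amacrine-like cells, with 17 control and 111 mutant UMIs, and 82 of the 111 lay in the Isl1-rich cluster, at 202 CPM (161 to 251). The 9 control cells held 8 Sox3 UMIs, at 148 CPM (63.9 to 292). In RPE-like cells Sox9, which is known to act on RPE genes, was at 145 and 116 CPM, unlike Sox2. Sox7, Sox17 and Sox18 had their highest level in endothelial cells, where these SoxF genes are known to act.

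The profiles over the 13 classes set Sox2 apart from the SoxC genes. Over 6367 genes, those whose log2 levels went most closely with Sox2 included Fezf2, Fzd5, Hes5 and Gldc, with a Pearson r of 0.903 to 0.927 in the library where it was lower. Hes5 is also a marker by which the progenitor class was named. For Sox4 the 5 closest were Snapc3, Gm26735, Rbm18, Tcaf1 and Zbtb20 (0.962 to 0.976), of which Gm26735 is the antisense neighbour that overlaps Sox4 and whose UMIs could come from the same locus. For Sox11 they were Zfp60, Ypel1, Fzd3, Tmeff1 and Nkain4 (0.943 to 0.953), and for Sox12 Zc3h7b, Wdr6, Stox2, Fam8a1 and Gprasp1 (0.916 to 0.936). Among the members, Sox4 and Sox11 had an r of 0.928 in the control and 0.910 in the mutant library, Sox4 and Sox12 of 0.786 and 0.855, and Sox2 at most 0.481 with any SoxC gene. These are 13 points that share libraries, free RNA and marker-based names, and the values describe them only.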

How the data were processed

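Single cells of 2 pools of e15.5 eye cups, 1 library per genotype, were sequenced on the 10x 3′ platform. The authors aligned reads to GRCm38 (mm10) with Cell Ranger 7.1.0 per the methods (the deposited matrices name 3.1.0 in their headers) and deposited raw UMI counts per gene and barcode, 13017 control and 13880 mutant barcodes. Barcodes with at least 200 genes and at most 15% mitochondrial UMIs were kept here, Scrublet calls (3.55% and 3.40%) were removed, and cells were clustered with scanpy 1.11.5 (2000 variable genes without Sox genes and markers, 30 components, 15 neighbours, Leiden resolution 1). The limit of 2000 UMIs that the study set was tried as an alternative. Doublet calls fell below the expected 9.55% and 10.4%, so doublets remain. A mixed amacrine and horizontal cluster was split again after its values had been seen, as were the limits for naming chosen. Of control cells 12.6%, and of mutant cells 11.3%, lay in 6 clusters without a name.

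UMIs were summed per class and divided by the class total. Levels have exact Poisson, shares exact Clopper-Pearson and ratios conditional binomial 95% intervals, which cover counting error only. With 1 library per genotype no test was run, and a gene counted as past a fold where the ratio passed it with at least 100 UMIs. The ratio code was tested on simulated data. The 4 members were named throughout, other genes by fixed lists and by the highest profile likeness (Pearson r of log2(CPM + 5) over 13 classes, genes reaching 50 CPM, lower r of both libraries). Members and lists were chosen with earlier results of these data known. Promoter sequences came from RefSeq. Some genes and the results that rest on them are not reported here.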

Additional observations from a re-analysis of the deposited data

Results flagged for a closer look

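These values lie on opposite sides of 1 in different classes, and the differences between classes were not tested, since each genotype is 1 library. The ratio of mutant to control for Sox2 was 0.949 in progenitor-like cells, against 1.11 in neurogenic, 2.51 in ganglion cell-like, 1.63 in amacrine-like, 2.91 in horizontal-like and 2.38 in RPE-like cells. For Sox4 it was 0.866 in neurogenic and 0.945 in amacrine-like cells, against 1.03 in ganglion cell-like cells. For Sox12 it was 0.917 in progenitor-like and 0.575 in RPE-like cells, against 1.34 in amacrine-like cells.

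A cluster left without a name, led by Cartpt, Pax2 and Wnt7b, lay outside every class compared. In its 38 mutant cells Sox4 was at 395 CPM and Sox11 at 436 CPM, against 243 and 278 CPM in its 40 control cells, while Sox2 was at 440 and 479 CPM.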

How the results depend on the processing

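No paired analysis was possible because each genotype has 1 library. Values here are log2 ratios, and settings other than those planned were chosen after seeing the data. Sox2 in control ganglion cell-like against progenitor-like cells was -6.44, and -4.92 with called doublets kept and -7.21 without the 5 richest cells. The SoxC sum in the same comparison was 2.52, and 2.49 with at most 5% mitochondrial UMIs, 2.44 with doublets kept, 2.61 without cells over 20000 UMIs, 2.47 at Leiden resolution 0.5, 2.30 with classes from markers in each cell, 2.64 as a mean of cells, 2.34 without mitochondrial, ribosomal and haemoglobin genes, 2.62 with free RNA subtracted, 2.45 in cells taken as female by their UMIs, and 2.41 without the shallow progenitor-like clusters. Mutant against control in progenitor-like cells, Sox2 was -0.07, and -0.11 without cells over 2000 UMIs and -0.04 as a mean of cells, and the SoxC sum was -0.09, turned to 0.10 without cells over 2000 UMIs, and was -0.12 at Leiden resolution 2, -0.03 as a mean of cells and -0.22 with free RNA subtracted. In RPE-like cells the main Sox2 value was a ratio of 2.38, or a log2 ratio of 0.70 to 1.80 by its interval, and the log2 ratio was 1.93 with classes from markers in each cell (7 control and 11 mutant UMIs), 2.55 in cells without progenitor marker UMIs (3 and 9 UMIs) and 0.87 without the 5 richest cells. The SoxC sum there was -0.32, and -0.71 with at most 5% mitochondrial UMIs, -0.04 without cells over 2000 UMIs, -0.62 with free RNA subtracted and -0.63 in cells without progenitor marker UMIs. Sox2 turned to -0.22 in ganglion cell-like cells without cells over 20000 UMIs and to -0.05 in amacrine-like cells without the Isl1-rich cluster, where it was 0.70 in all cells and 0.09 with doublets kept, 0.15 at Leiden resolution 2.0, 0.27 with at most 5% mitochondrial UMIs and 0.22 in cells taken as female by their UMIs. The cause of these shifts was not tested. Of 596 recomputed levels 346 moved by less than counting error. Sox2 was highest in progenitor-like cells under 12 of 12 settings in both libraries. Sox12 was highest in horizontal-like cells in 7 control and 8 mutant settings, and in the others no horizontal-like class was left to compare. No ganglion cell-like class remained at 2000 UMIs or fewer, and RPE-like Sox2 was at 7.73 control and 25.1 mutant CPM there, from at most 3 UMIs in each library. No amacrine-like class formed at Leiden resolution 0.5. Leaving out a replicate was not possible, and few Sox2 UMIs limit neurons and RPE-like cells.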
